A study of Mus musculus with 6 samples.

Results

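The 40 genes described here are Pax genes and homeobox genes that lie outside the Hox clusters. They belong to 9 families, namely Pax (8 genes), Lhx (8), Irx (6), Dlx (6), Six2, Six3 and Six6 (3), Nkx (3), En (2), Gbx (2) and Msx (2). Accessible regions were assigned to them by position: a region belonged to a gene when its midpoint lay inside the gene or within 50 kb of its annotated limits on mm10. This gave 265 distinct regions of 69689 in the deposited table. Gene-end regions are those with a midpoint no more than 1 kb from either limit. There were 39 of them at the 40 genes, and 226 regions lay elsewhere near them. Gene limits came from a RefSeq table that gives no exons, introns or UTRs, so a region is placed here only as inside or outside a gene.

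The data came from R1, a wild-type line of mouse embryonic stem cells grown on mouse embryonic fibroblast feeders in serum with LIF, 3 µM CHIR-99021 and 1 µM PD0325901. Feeder cells were taken away by replating before ACC-seq, which reads open chromatin through insertion of the Tn5 transposase. There were 2 libraries in each of 3 groups: Fresh cells, tagmented unfixed at 37 °C; Fix cells, crosslinked for 10 min by 1% formaldehyde; and Fix_1,6-Hex cells, crosslinked in the same way but exposed to 10% 1,6-hexanediol for 30 s beforehand and throughout fixation. Both fixed groups were tagmented at 55 °C, so temperature and fixation cannot be told apart. The table names 1 of 9 clusters for each region and holds no value per library. Depth is unknown, no group can be set against another, and the sources used here do not give the accessibility pattern that each cluster name stands for. What follows is therefore where the named clusters lie around these genes, beside the same measure over all 21887 protein-coding genes. No test was run between the list and other genes, and an excess over that background is a description.

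Homeobox genes encode transcription factors with a DNA-binding homeodomain, and Pax factors bind DNA through a paired domain, to which some add a homeodomain. Both kinds specify organs, limbs, sense organs and regions of the nervous system in the embryo. In embryonic stem cells most of them are hardly transcribed, and many have CpG-rich promoters at which Polycomb complexes hold a repressive histone mark beside an active one.

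The sequences show the promoters of 5 of the genes, 1 for each of the gene-end clusters named with it. Each is the 300 bases from 250 before to 50 after a start listed by RefSeq on GRCm38.p6, for the gene with the widest gene-end region among those of the cluster whose listed promoter that region covers. The cytosine and guanine of every CpG are in capitals. Dlx2 (chr2:71546705-71547004, minus strand) stands for cluster 1, Irx3 (chr8:91801605-91801904, minus strand) for cluster 8 and Lhx1 (chr11:84525485-84525784, minus strand) for cluster 9. Gbx2 (chr1:89931127-89931426, minus strand) stands for cluster 3 and Six6 (chr12:72939632-72939931, plus strand) for cluster 6. All 5 windows lie wholly within the region named.
Dlx2: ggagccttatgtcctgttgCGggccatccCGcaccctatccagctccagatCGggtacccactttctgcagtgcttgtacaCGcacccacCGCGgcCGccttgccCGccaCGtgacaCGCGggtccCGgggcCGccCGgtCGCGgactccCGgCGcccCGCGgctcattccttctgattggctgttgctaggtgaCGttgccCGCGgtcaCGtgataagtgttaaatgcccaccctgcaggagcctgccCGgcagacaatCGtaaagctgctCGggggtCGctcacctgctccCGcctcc
Irx3: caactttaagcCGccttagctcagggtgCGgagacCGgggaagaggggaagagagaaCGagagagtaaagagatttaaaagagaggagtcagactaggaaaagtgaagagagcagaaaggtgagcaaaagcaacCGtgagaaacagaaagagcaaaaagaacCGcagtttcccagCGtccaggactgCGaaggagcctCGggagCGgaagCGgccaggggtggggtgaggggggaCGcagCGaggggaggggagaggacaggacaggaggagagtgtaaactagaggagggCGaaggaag
Lhx1: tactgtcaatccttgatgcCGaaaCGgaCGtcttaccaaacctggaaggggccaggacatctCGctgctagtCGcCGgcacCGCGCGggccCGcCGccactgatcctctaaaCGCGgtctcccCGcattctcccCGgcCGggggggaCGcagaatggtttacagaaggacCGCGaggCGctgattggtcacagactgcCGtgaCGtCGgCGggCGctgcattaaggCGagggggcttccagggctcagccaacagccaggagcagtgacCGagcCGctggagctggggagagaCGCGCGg
Gbx2: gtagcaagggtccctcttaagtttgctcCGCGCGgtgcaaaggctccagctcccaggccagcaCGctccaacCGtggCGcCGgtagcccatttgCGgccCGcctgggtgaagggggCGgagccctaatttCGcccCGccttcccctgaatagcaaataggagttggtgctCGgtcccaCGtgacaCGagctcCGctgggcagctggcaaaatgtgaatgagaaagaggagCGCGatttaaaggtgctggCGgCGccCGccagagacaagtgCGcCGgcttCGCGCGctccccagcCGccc
Six6: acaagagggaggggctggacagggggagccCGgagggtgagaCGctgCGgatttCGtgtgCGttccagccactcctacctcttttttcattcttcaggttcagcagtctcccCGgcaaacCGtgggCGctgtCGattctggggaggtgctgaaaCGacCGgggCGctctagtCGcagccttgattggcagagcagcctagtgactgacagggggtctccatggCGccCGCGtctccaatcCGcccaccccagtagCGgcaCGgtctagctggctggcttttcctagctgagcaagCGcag
The Lhx1 window holds 31 CpG, the Dlx2 window 29, the Gbx2 window 27 and the Six6 window 20, and the Irx3 window holds 14 at a GC content of 56.0%. The median over 21263 promoters of protein-coding genes was 13.0.

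At gene ends, cluster 1 made up the largest part of these regions. Of the 39 gene-end regions, 21 (53.8%, exact binomial 95% interval 37.2 to 69.9) belonged to cluster 1, against a background of 20.6% of the 13205 gene-end regions of all protein-coding genes. Cluster 8 followed with 7 regions (17.9%, background 21.9%) and cluster 9 with 5 (12.8%, background 10.1%). Clusters 3 and 6 had 2 regions each (5.13%, background 12.2% and 6.08%). Clusters 4 and 7 had 1 each (2.56%, background 11.5% and 5.42%). No gene-end region was in cluster 5 (background 4.45%) or in cluster 2, which made up 7.71% of gene-end regions in the background. Away from gene ends cluster 2 was also at 0, and over all 265 regions its background was 2.45%. The intervals cover counting error only and treat regions as independent, which neighbouring regions are not. The plot of shares by cluster sets each of these beside its background.

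**Figure D1:**
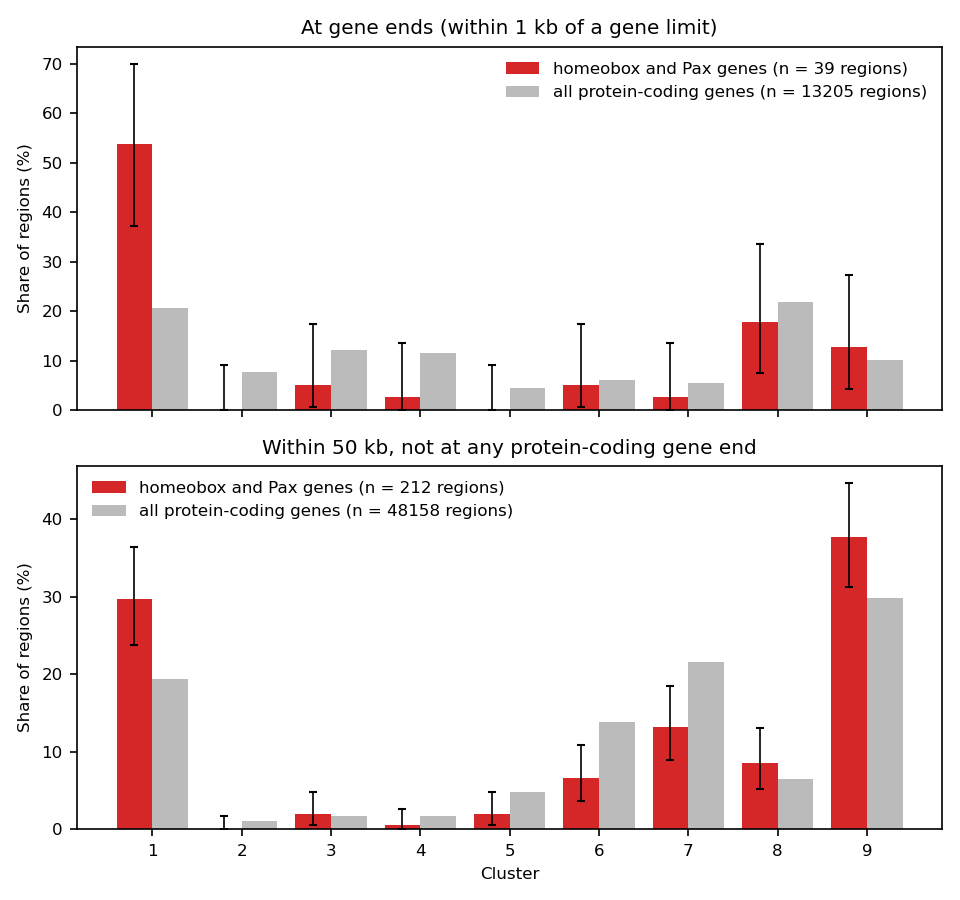
Share of regions (%) in each cluster at gene ends (top) and elsewhere within 50 kb, without regions at any protein-coding gene end (bottom). Red bars are the homeobox and Pax genes with exact binomial 95% intervals, grey bars all protein-coding genes; cluster 1 is 53.8% against 20.6% at gene ends and 29.7% against 19.3% elsewhere.

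A gene-end region was found at 31 of the 40 genes (77.5%), against 60.9% of all protein-coding genes. Of these 31 genes, 19 had a cluster 1 region at an end (61.3%, beside 21.6% of all genes with a gene-end region) and 8 had 2 gene-end regions (25.8%, beside 12.2% with 2 or more). The other 9 genes were Pax5, Pax8, Lhx4, Lhx6, Lhx8, Six3, Irx2, Dlx1 and En2. The margin over the background depended on the window. With a window of 500 bp the count was 21 of 40, beside a background of 49.3%, and with 2.5 kb it was 38, beside 69.8%.

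The strand was known for 29 of the genes, and cluster 1 was spread unevenly over their 2 limits. At the start limit, 20 regions were found with a median width of 1642 bp, beside 1112 bp over all genes. Of these, 6 were in cluster 1 (30.0%, background 18.4%), 5 in cluster 8 (25%, near its background of 23.7%), 4 in cluster 9 (20.0%, background 6.96%), 2 each in clusters 3 and 6, and 1 in cluster 7. The start limit is the annotated limit of the gene. At Lhx9, Pax1, Pax9 and Nkx2-2 the only listed start lay further inside the gene, outside the region at the start limit. At the far limit there were 8 regions with a median width of 614.5 bp, beside 545.5 bp. Of these, 7 were in cluster 1 (87.5%, background 24.8%). These 7 lay at Dlx2, Gbx2, Irx3, Lhx2, Msx1, Nkx2-5 and Six6, and the eighth, at Irx4, was in cluster 8. Apart from Lhx2, the genes of these 7 regions were 3144 to 6325 bp long, so their far limit lay close to the start limit. The median length of all protein-coding genes was 17.2 kb, and the background was not matched for length. In Irx3 and Msx1 a cluster 8 region at the start faced a cluster 1 region at the far limit, in Lhx2 a cluster 9 region did, in Gbx2 a cluster 3 region and in Six6 a cluster 6 region. Only Dlx2 had cluster 1 at both limits among these 29 genes. Of the 11 gene-end regions at genes whose strand was not known, 8 were in cluster 1.

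**Figure D2:**
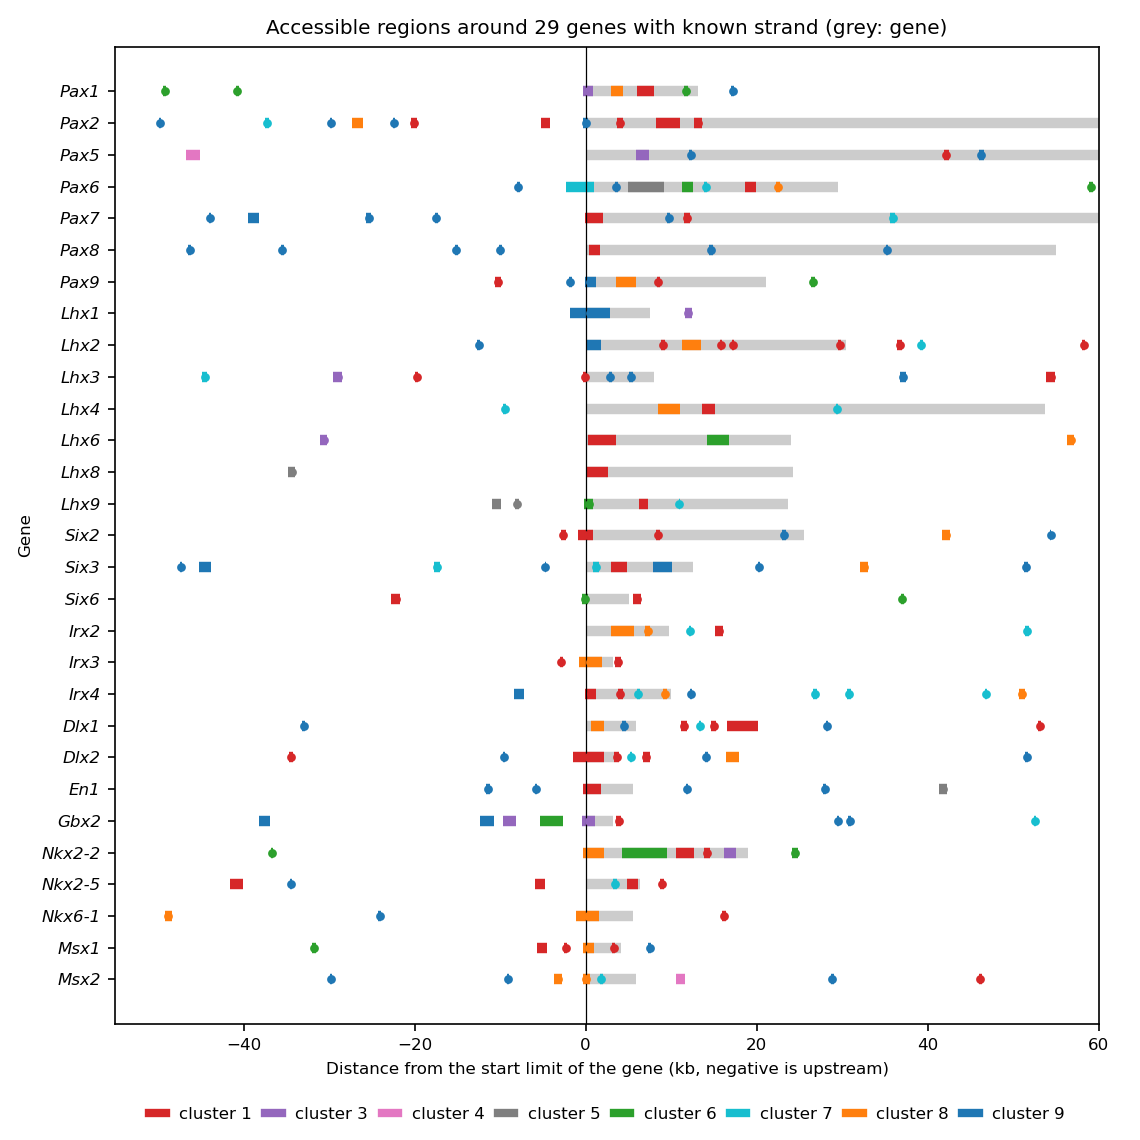
Accessible regions around the 29 genes with known strand, drawn to scale by distance (kb) from the start limit of the gene, upstream to the left, with the gene in grey (axis cropped at 60 kb) and regions coloured by cluster, short ones marked by a dot. Start limits carry several colours, while 7 of the 8 regions at the far limit are red (cluster 1).

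Listed promoters were also compared with the regions, without the midpoint rule. RefSeq promoters were found for 29 of the 40 genes, 36 promoters in all. An accessible region overlapped 31 of them (86.1%, background 60.7%). Of the 29 genes, 26 had at least 1 overlapped promoter (89.7%, beside 62.5% of all protein-coding genes with a listed promoter). Of the 31 overlapped promoters, 13 met a cluster 1 region (41.9%, against 17.9% of overlapped promoters at large) and 10 a cluster 8 region (32.3% against 23.8%). A cluster 9 region met 3 (9.68% against 5.41%) and a cluster 3 region 1 (3.23% against 15.1%). Cluster 6 and cluster 7 regions met 2 each (6.45% against 5.73% and 2.88%). Counted by gene, clusters 1 and 8 were level, with 10 genes each, beside 2012 and 2667 of 10930 genes over all. Lhx6 and Pax2 each had more than 1 promoter in the same cluster 1 region. Of the 9 genes without a gene-end region, 8 had a listed promoter, and in 5 of them (Dlx1, Irx2, Lhx4, Lhx6 and Lhx8) a region overlapped it with its midpoint more than 1 kb from the gene's limits. The overlap at Lhx8 was 12 bases and that at Dlx1, Irx2 and Lhx4 was the full 300, as it was at all 3 listed promoters of Lhx6. Pax5, Pax8 and Six3 had none, with the nearest region midpoint 6654 bp, 1063 bp and 1808 bp from the listed start.

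The promoters of these genes were richer in CpG than promoters at large. The ratio of observed to expected CpG reached 0.6, a common limit for CpG islands, in 28 of 36 promoters (77.8%), against 47.7% of all promoters, and the median was 0.758 against 0.567. All 10 promoters that met a cluster 8 region were in this CpG-rich class, beside 77.6% of the 3068 promoters that met cluster 8 over all genes, the highest being Nkx6-1 with 40 CpG. Of the 13 that met cluster 1, 5 were below 0.6 (38.5%, beside 30.3% over all genes). The lowest was Lhx8 with 4 CpG and a ratio of 0.241. A promoter of Lhx6 (0.579) and that of Pax7 (0.581) lay just under the limit, and the lowest of cluster 8, Lhx4 (0.613), just above it. The median ratio was higher for the promoters that met cluster 1 (0.789) than for those that met cluster 8 (0.758). Among CpG-rich promoters, 24 of 28 were overlapped (85.7%, background 95.6%), and among the 8 CpG-poor ones 7 were (87.5%, background 28.9%). The list was thus above its background among CpG-poor promoters and below it among CpG-rich ones, with few promoters in each class. The CpG-rich promoters without a region were those of Pax5 (23 CpG), Six3 (14), an internal start of Pax6 (16) and the inner start of Lhx3 (28).

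**Figure D3:**
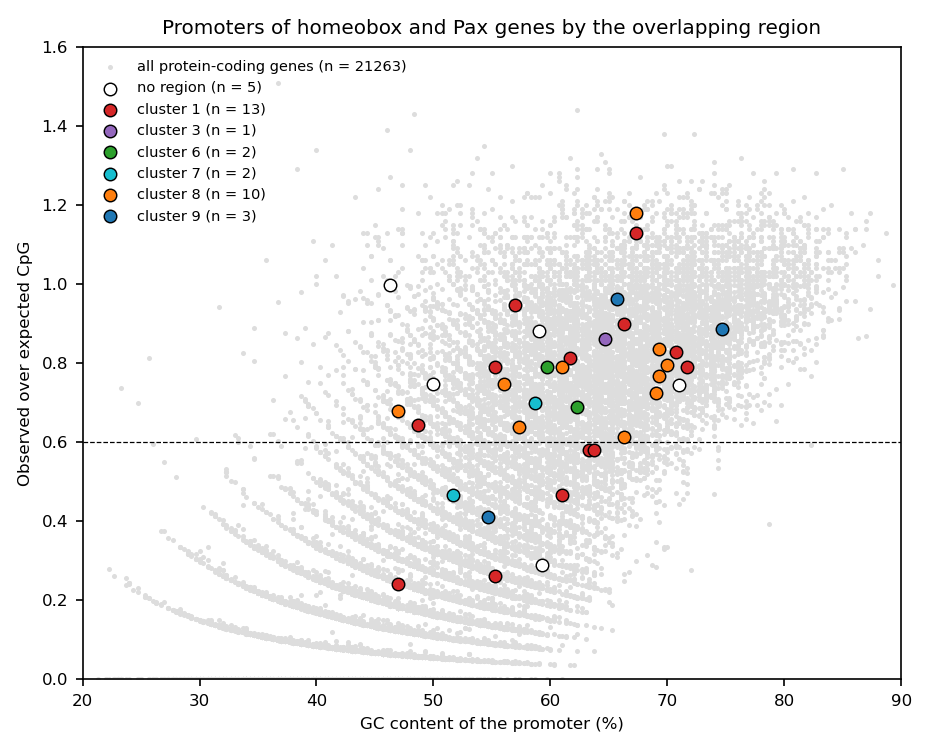
Observed over expected CpG against GC content (%) for promoters of 300 bases. Grey points are 21263 promoters of protein-coding genes (axes cropped), large points the 36 of homeobox and Pax genes coloured by the cluster of the overlapping region; all 10 cluster 8 points lie above the dashed line at 0.6 and 5 of the 13 cluster 1 points lie below it.

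Away from gene ends, clusters 1 and 9 shared most of the regions and changed places with distance. Of the 226 other regions, 83 (36.7%) were in cluster 9 and 67 (29.6%) in cluster 1. Cluster 7 had 28 (12.4%), cluster 8 had 19 (8.41%) and cluster 6 had 15 (6.64%). With the 14 regions at an end of another protein-coding gene set aside, cluster 9 held 37.7% of 212 regions (background 29.8%) and cluster 1 held 29.7% (background 19.3%). Clusters 6 and 7 lay below their background, with 6.60% against 13.8% and 13.2% against 21.6%. A cluster 1 region lay within 50 kb of 38 of the 40 genes (95.0%, background 63.3%), the exceptions being Lhx1 and Irx6.

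Counted once for each gene they lay near, cluster 1 regions made up 53.8% of regions at gene ends, 38.2% of 76 regions inside genes, 32.1% of 56 at up to 10 kb outside, 34.0% of 50 at 10 to 25 kb and 19.7% of 76 at 25 to 50 kb. Over all protein-coding genes the same shares were 19.8%, 18.8%, 23.3%, 22.4% and 21.8%. The cluster 1 share thus stood above the background from the gene out to 25 kb and lay just under it beyond. Cluster 9 went the other way, from 12.8% at gene ends to 22.4% inside, 37.5%, 44.0% and 47.4%, beside 9.47%, 30.0%, 22.9%, 24.0% and 24.4% in the background. Part of the background outside genes consists of ends of neighbouring genes. Without regions at any protein-coding gene end, a setting added after seeing the data, the cluster 1 share stayed at 38.2% inside genes (background 18.8%) and was 32.7% at up to 10 kb (background 24.5%), but at 10 to 25 kb it was 24.4% of 41 regions beside 23.3%. Of the 17 cluster 1 regions in that bin, 10 were left, those at ends of neighbouring Dlx genes being among the ones set aside. The outermost bin gave 20.3% for cluster 1 (background 22.5%) and 49.3% for cluster 9 (background 29.6%).

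**Figure D4:**
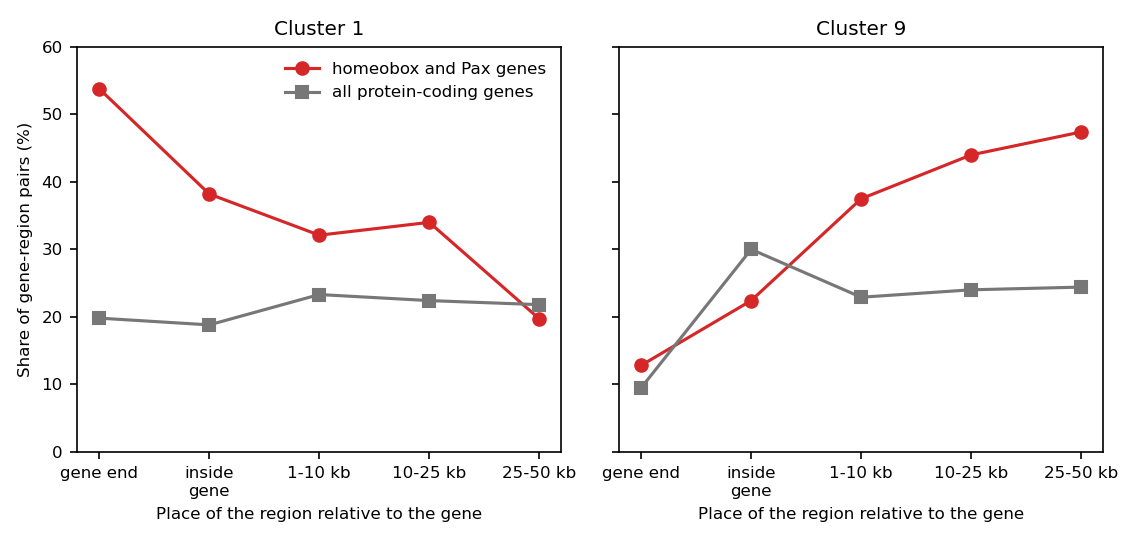
Share of gene-region pairs (%) in cluster 1 (left) and cluster 9 (right) by place relative to the gene, for the homeobox and Pax genes (red circles) and all protein-coding genes (grey squares). Cluster 1 goes from 53.8% at gene ends to 19.7% at 25 to 50 kb and cluster 9 from 12.8% to 47.4%, while the grey lines stay between 21.8% and 24.4% outside genes.

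Regions at these gene ends were somewhat wider in the median than at other genes, though not in every cluster. The median width of the 39 gene-end regions was 1242 bp (range 313 to 4713), against 1039 bp. In cluster 1 it was 998.0 bp against 930.0 bp, and in cluster 8 it was 1317 bp against 1028 bp. In cluster 9, whose gene-end regions are narrow in the background (median 373.5 bp), the 5 regions of this list measured 589 bp at Pax2, 1242 bp at Pax9, 1251 bp at Dlx4, 1774 bp at Lhx2 and 4713 bp at Lhx1. The Lhx1 region ranked second in width among all 18283 regions of cluster 9. The single cluster 7 region, at Pax6, was 3245 bp wide, against a cluster 7 median at gene ends of 400.0 bp. The 2 regions of cluster 6 were narrower than their background, with a median of 832.5 bp against 1018 bp.

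Each gene had between 2 and 16 regions within 50 kb, with a median of 8, against 7 over all genes. The listed genes are short, with a median length of 8.80 kb against 17.2 kb, and per 100 kb of gene and flanks they had a median of 6.04 regions against 4.74. Pax2 had most, with 16, followed by Pax5, Lhx2, Lhx5, Dlx3 and Gbx1 with 11 each. Lhx1 had 2, and Lhx8, Irx1, Irx3 and Irx6 had 3 each. Among regions that follow each other along the chromosome in these windows, 66 of 229 neighbouring pairs (28.8%) shared a cluster, against 18.8% around all protein-coding genes. Clusters 1 and 9 together held 66.4% of the regions near these genes, against 45.1%. The share of matching pairs that this mix alone would give was not computed. Dlx pairs and Six2 with Six3 lie close enough to share regions, and 32 of the 265 regions were near 2 of the genes.

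**Figure D5:**
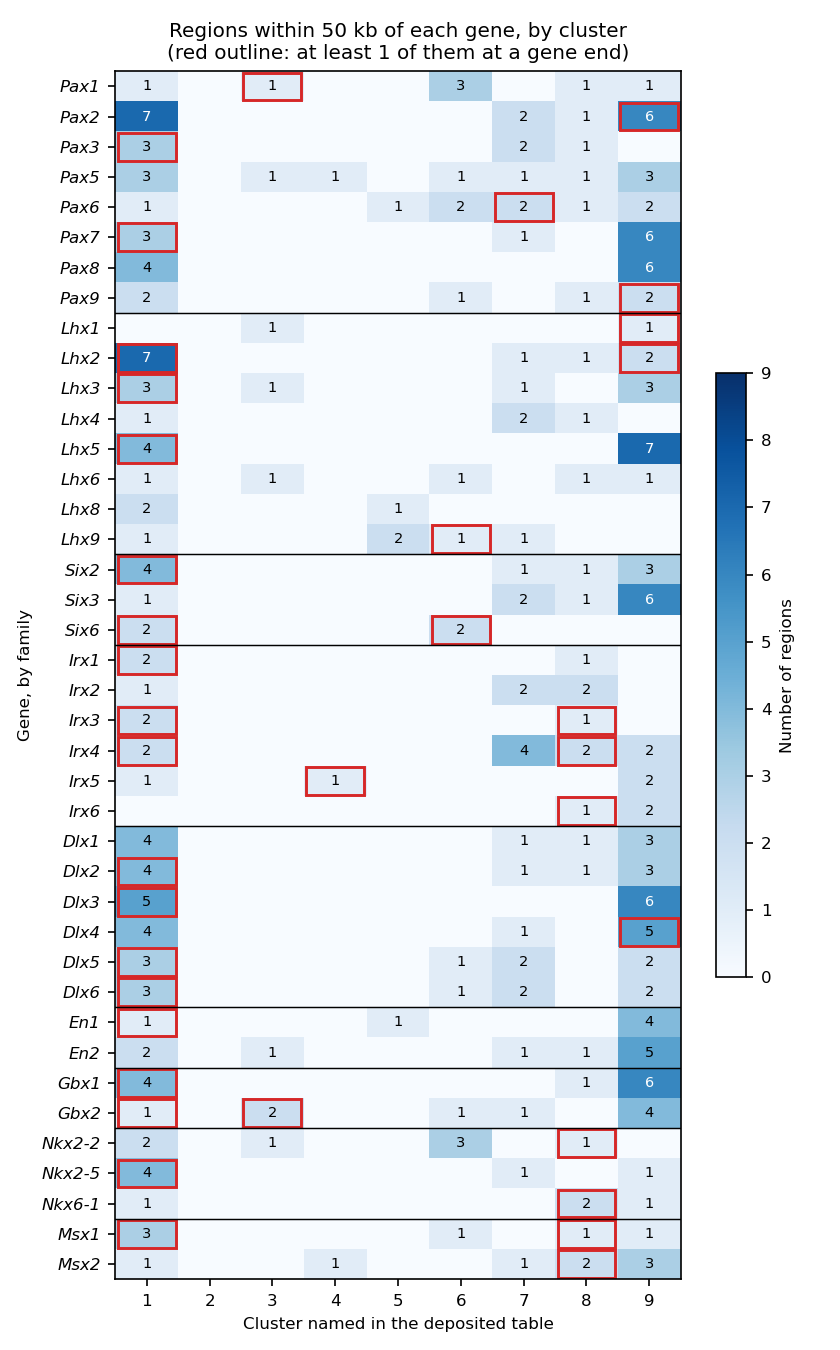
Number of regions within 50 kb of each gene (rows, by family) in each cluster (columns), with a red outline where at least 1 of them lies at a gene end. Counts gather in the columns of clusters 1 and 9, with up to 7 per gene in each, and the column of cluster 2 is empty.

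The shares of the single families can be read against all regions within 50 kb of protein-coding genes, of which 19.6% were in cluster 1, 25.6% in cluster 9 and 45.1% in either. The Pax family had 75 regions, 32.0% in cluster 1 and 34.7% in cluster 9, and its gene-end regions fell in 4 clusters. Pax6, which directs eye and forebrain development (chromosome 2, 105668896 to 105698410), had the widest of them, a cluster 7 region from 105666607 to 105669851 over its listed upstream start. Inside Pax6 lay a cluster 5 region of 4297 bp, and its 9 regions fell in 6 clusters. Pax3 and Pax7, factors of neural crest and muscle stem cells, both had a cluster 1 region at an end, of 954 bp and 2040 bp. Around Pax7, 6 of 10 regions were in cluster 9.

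Pax2, Pax5 and Pax8, which act in kidney, B cells and thyroid, differed from each other. Pax2 (chromosome 19, 44746601 to 44838269) had a narrow cluster 9 region at its upstream start (44746335 to 44746923), where the promoter held 7 CpG. Its 2 inner promoters, with 23 and 30 CpG, lay in a cluster 1 region of 2827 bp (44754804 to 44757630), and the 7 cluster 1 regions of Pax2 included all 5 regions inside the gene and away from its ends. Pax8 had 10 regions, 4 in cluster 1 and 6 in cluster 9, with the cluster 1 region nearest to its start 1325 bp wide. Pax5 (chromosome 4, 44524748 to 44710694) had 10 of its 11 regions inside the gene, spread over 6 clusters, and a cluster 4 region 45.9 kb outside that lay at an end of Zcchc7. Pax1 and Pax9, factors of the developing vertebral column and pharyngeal pouches, had start regions of cluster 3 and cluster 9, each followed inside the gene by a cluster 8 region that overlapped the listed promoter (1412 bp and 2290 bp).

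Among the 8 Lhx genes, whose products carry LIM domains beside the homeodomain, 38.8% of 49 regions were in cluster 1 and 28.6%, near the background, in cluster 9. Lhx1, needed for head formation (chromosome 11, 84517975 to 84525534), had only the 4713 bp cluster 9 region at its start (84522686 to 84527398), which lay at an end of the lncRNA Lhx1os as well, and a cluster 3 region at an end of Aatf. Its relative Lhx5 (chromosome 5, 120431886 to 120441457) had 11 regions instead, with cluster 1 at both limits (120430904 to 120432326 and 120440764 to 120441076) and 7 of cluster 9 around them. Lhx2, a factor of forebrain, eye and hair follicle (chromosome 2, 38339271 to 38369737), had 7 cluster 1 regions of 11, a cluster 9 region at its start (38339280 to 38341053), a cluster 1 region at its far limit (38368795 to 38369139) and a 2223 bp cluster 8 region over its inner promoter. Lhx9, a gonad factor, had a cluster 6 region of 1015 bp at its start limit. Its listed promoter lay further inside the gene and met a cluster 1 region of 1127 bp.

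Lhx6 and Lhx8, which act in forebrain interneurons and cholinergic neurons, both had a wide cluster 1 region just inside the gene, of 3336 bp and 2580 bp. Lhx8 (chromosome 3, 154306288 to 154330560) had 3 regions in all. Lhx3 and Lhx4, factors of pituitary and motor neurons, were not alike. Lhx3 had a 440 bp cluster 1 region at its start, while the 2552 bp region over the listed promoter of Lhx4 was in cluster 8.

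Among Six2, Six3 and Six6, Six2, which maintains kidney progenitors (chromosome 17, 85662736 to 85688254), had the widest gene-end region, in cluster 1 (85687371 to 85689169), and its promoter held 37 CpG. Six3 and Six6 act in eye and forebrain. Around Six3, 6 of 10 regions were in cluster 9, among them a 2244 bp region inside the gene. Six6 had a 650 bp cluster 6 region over the promoter shown above and a 946 bp cluster 1 region at its far limit.

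The Irx genes pattern the heart, limbs and neural tube and lie in 2 groups of 3, Irx1, Irx2 and Irx4 on chromosome 13 and Irx3, Irx5 and Irx6 on chromosome 8. Of their 28 regions, 28.6% were in cluster 1 and 21.4% in cluster 9, and 3 of the 7 gene-end regions were in cluster 8. Irx1 (71958232 to 71963723) had a 1441 bp cluster 1 region at an end (71962678 to 71964118) and a 1323 bp cluster 8 region inside, and Irx3 (91798511 to 91801654) had a 2784 bp cluster 8 region at its start (91799700 to 91802483) and a 717 bp cluster 1 region at the far limit (91797466 to 91798182). Irx5 (92357796 to 92361456) had the widest gene-end region of the family, from 92355663 to 92358602, and it was in cluster 4. Irx2, its relative, had 2 cluster 8 regions inside the gene. Irx4, a factor of the heart ventricle, had cluster 1 at its start and cluster 8 at its far limit, and Irx6 (92674289 to 92680956) had a 1289 bp cluster 8 region at an end (92673273 to 92674561).

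Of all families, Dlx had the highest joint share of clusters 1 and 9, 79.3% of 29 regions, beside 50.0% in Irx, which had the lowest and lay near the background. These genes act in jaws, limbs and forebrain interneurons and lie in pairs. Dlx2, Dlx3 and Dlx5, which form 1 branch of the family, all had cluster 1 at a gene end. Dlx2 (chromosome 2, 71543408 to 71546754) had it at both limits, from 71542811 to 71543382 and from 71544595 to 71548243, the latter being the widest gene-end region of cluster 1 in this list (3649 bp). In the other branch, Dlx6 had a 1625 bp cluster 1 region, Dlx4 a 1251 bp cluster 9 region and Dlx1 a 1533 bp cluster 8 region over its promoter. Dlx3 (chromosome 11, 95120117 to 95125296) had 5 regions of cluster 1 and 6 of cluster 9 and none of another cluster, with cluster 1 at an end (95119916 to 95120913).

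En1 and En2 mark the border of midbrain and hindbrain, and 56.2% of their 16 regions were in cluster 9. En1 (chromosome 1, 120602487 to 120607991) had a 2108 bp cluster 1 region at its start (120602132 to 120604239). En2 had a 3721 bp cluster 1 region that reached past its limit from inside, with its midpoint 1360 bp from it. Gbx1 and Gbx2 also had many regions of cluster 9, 50.0% of 20. Gbx2 encodes a hindbrain factor that is also expressed in mouse embryonic stem cells (chromosome 1, 89927962 to 89931176). Its start region was in cluster 3 (89930054 to 89931562) and its far-limit region in cluster 1 (89926987 to 89927643). Upstream lay a 2691 bp cluster 6 region at 3.95 kb, at an end of the predicted gene LOC102637806, and a second cluster 3 region at 8.89 kb. Gbx1 (chromosome 5, 24504426 to 24526848) had a 708 bp cluster 1 region at an end (24526731 to 24527438) and 6 cluster 9 regions.

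The Nkx genes had the lowest cluster 9 share of the families, 11.8% of 17 regions, and 41.2% were in cluster 1. Nkx2-2, of ventral neural tube and pancreas, and Nkx6-1, of motor neuron progenitors and beta cells, both had cluster 8 at the start, of 2374 bp and 2645 bp. The Nkx6-1 region (chromosome 5, 101663148 to 101665792) covered that limit of the gene (101659184 to 101664711). Inside Nkx2-2 lay a cluster 6 region of 5302 bp that covers its listed promoter and lay at an end of the lncRNA 6430503K07Rik. Nkx2-5, the heart factor, had 4 cluster 1 regions of 6, one of them at its far limit, and a 418 bp cluster 7 region met its listed promoter. Msx1 and Msx2, limb and tooth factors that respond to BMP signals, both had cluster 8 at the start, of 1317 bp at Msx1 (chromosome 5, 37823560 to 37824876) and 748 bp at Msx2. Msx1 (37820491 to 37824585) also had a cluster 1 region of 321 bp at its far limit (37821163 to 37821483).

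Close relatives were compared by the clusters of their gene-end regions. Of 16 pairs, formed by sequence relationship or, for Dlx, by adjacency, 10 had a gene-end region at both genes and 6 of these shared a cluster. The pairs that did were Pax3 with Pax7, Irx1 with Irx3, Dlx5 with Dlx6 and Gbx1 with Gbx2 in cluster 1, and Irx4 with Irx6 and Msx1 with Msx2 in cluster 8. Pax1 with Pax9, Lhx1 with Lhx5, Lhx2 with Lhx9 and Dlx3 with Dlx4 did not. A match at either limit was counted. Irx3 and Gbx2 shared cluster 1 only through their far limits, with clusters 8 and 3 at the start. Irx4 shared cluster 8 only through its far limit, with cluster 1 at the start. The strand of their partners Irx1, Gbx1 and Irx6 was not known. Cluster 1, which 4 of the 6 pairs shared, lay at an end of 19 of the 31 genes, and no share over unrelated pairs was computed.

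A second list of homeobox and Pax genes held no Hox gene and had 68 of 69 symbols matched. It gave much the same shares at gene ends but not everywhere else. Its 50 kb windows were not cleared of regions near the Hox clusters. A gene-end region was found at 48 of the 68 genes (70.6%), and 31 of their 59 gene-end regions were in cluster 1 (52.5%), 11 in cluster 8 (18.6%), 7 in cluster 9 (11.9%) and none in cluster 2. Six5, Emx2 and Nkx2-3 were among those with cluster 1 at an end, and Pax4, Six4, Otx2 and Isl2 had no gene-end region. Of the other 386 regions near these genes, 29.5% were in cluster 1, close to the 29.6% above, and 29.3% in cluster 9, below the 36.7% above. Cluster 2 held 6 of these regions (1.55%). In the background of regions at no protein-coding gene end, cluster 9 held 29.8% and cluster 2 held 1.00%. Ends of neighbouring genes were left out of that background but not of the 386 regions, so these shares are not matched. The 2 lists have no gene in common, and no difference between them was tested.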

How the data were processed

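ACC-seq was done on 6 libraries, and 1 deposited table covers the whole series. Per the submitters' processing notes, the tools included Bowtie2 2.3.3.1, SAMtools 1.6, cutadapt 1.18 and Picard, and the build was mm10. The sources used here do not give how regions were called, merged and clustered. The authors' deposited values are region limits and a cluster name, with no unit of signal, so depth and precision per library are unknown and the planned group contrasts had no values to run on. Starts were counted from 1.

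The 40 genes were matched by symbol to RefSeq GRCm38.p6, and all had a match. Distances ran from region midpoints to gene limits. Regions count once unless pairs are named. Mitochondrial genes were left out. Strand, and the promoters of 300 bases, came from the RefSeq promoter table. Shares carry exact (Clopper-Pearson) 95% intervals. Members, lists and settings were chosen with earlier results of these data known, so the cluster 1 share is not independent support. All 40 genes were named. Positions were given for the widest gene-end region of each family and for the genes with most and fewest regions, ties included. The other list was named in list order, and 1 gene of it is not reported here. Promoters were shown for the most frequent gene-end clusters. Lhx9, first by width in cluster 6, was replaced by Six6 because its listed promoter lay outside the region. Further genes and regions were singled out after their values were seen. The region counts were tested on simulated positions against a direct count. Python 3.11.15, pandas 2.3.3, numpy 2.4.6, SciPy 1.17.1 and matplotlib 3.10.9 were used.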

Additional observations from a re-analysis of the deposited data

How the results depend on the processing

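No paired analysis was possible because the deposited table holds no value per library. The cluster 1 share of gene-end regions lay between 44.4% (2.5 kb window) and 53.8% under windows of 500 bp and 2.5 kb, any overlap with the 1 kb window, counting once per gene and leaving out Irx and Dlx, and its background between 19.0% and 21.9% where one was computed. For other regions the cluster 1 share was 34.9% within 20 kb and 25% within 100 kb, and lay between 29.7% and 30.6% under the other 4 settings. In the distance bins, leaving out regions at any protein-coding gene end, added after seeing the data, took away most of the cluster 1 excess at 10 to 25 kb (24.4% against 23.3%). The median gene-end width lay between 1015 bp and 1276 bp. Genes with a gene-end region numbered 37 with any overlap, Irx2, Lhx4 and Pax5 being the exceptions. The background rose as well under this setting, to 65.7% of all protein-coding genes from 60.9% in the main setting. Distinct regions numbered 191 within 20 kb and 415 within 100 kb, since a wider window takes in more. Depth per library is unknown, so an absent region cannot be read as closed chromatin.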
